A study of Mus musculus with 16 samples.

Results

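The genes examined are those of the motile ciliary axoneme in the mouse olfactory mucosa. They were taken by symbol, as genes whose names begin with Dnah, Dnaic, Dnali, Dnaaf, Rsph, Tekt, Cfap or Drc followed by a digit, together with Foxj1, Ccdc113, Ccdc39, Ccdc40 and Hydin. This gave 67 genes of the 19505 measured, each with 1 probe, while Foxj1 and Ccdc40 were not analysed here because the platform annotation names no probe for them. The series applied the Kentucky assay, a search for receptors that an odor activates in freely breathing mice, with Clariom S arrays. All mice carried S100a5-tauGFP, in which the promoter of S100a5, a gene of active olfactory sensory neurons, drives the fluorescent reporter. There were 24 mice of both sexes, 7 to 12 weeks old, each held in a chamber of flowing clean air (3.1 L/min) for 40 h. From hour 26 they received pulses of 10 s every 20 min, of indole/ionone in the odor arm and of filtered air in the vehicle arm. Cells of the dissociated mucosa were pooled from 3 mice and sorted by fluorescence, so that each of 8 pools gave 1 GFP+ and 1 GFP- array. The groups are thus GFP+ cells of odor pools, GFP- cells of odor pools, GFP+ cells of vehicle pools and GFP- cells of vehicle pools, with 4 arrays each. Both arms hold different mice, and the 2 fractions of a pool come from the same mice.

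A motile cilium is built on an axoneme of doublet microtubules around a central pair. Outer and inner dynein arms drive the sliding of the doublets, radial spokes pass signals from the central pair to the arms, the nexin-dynein regulatory complex links neighbouring doublets, and inner proteins such as tektins line the doublet lumen. In the nasal cavity such cilia beat on respiratory epithelial cells. The cilia of mammalian olfactory sensory neurons also hold a central pair in their proximal part, but lack dynein arms and do not beat.

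Whether each gene gave a signal was read against the median of 23 antigenomic control probes, which lay at 5.63 to 6.05 on the log2 scale over the 16 arrays. Of the 67 motile cilia genes, 46 (68.7%) lay above it on all 16 arrays, against 49.6% of all genes, and 16 (23.9%) lay above it on none, against 35.1% of all genes. The remaining 5 were Cfap53 (15 arrays), Ccdc113 (14), Cfap45 (13), Dnaaf4 (11) and Dnaaf3 (1). Those above it on none were the dynein heavy chains Dnah1, Dnah5, Dnah6, Dnah8, Dnah10 and Dnah17, the tektins Tekt2 and Tekt3, the spoke gene Rsph6a, the assembly genes Dnaaf6 and Dnaaf6b, and Cfap73, Cfap161, Cfap221, Cfap97d1 and Cfap97d2. A level under this median does not show absence, since Cngb1, a subunit of the olfactory transduction channel, also lay above it on 0 arrays. The other 11 of 12 markers of mature olfactory sensory neurons lay above it on all arrays. Nor does a level above it exclude background. The 95th percentile of 5222 further probes, labelled as negative, lay at 9.07 to 10.08 over the arrays. Of the genes called in both arms below, Ccdc113, Tekt4, Cfap57, Dnaic1, Cfap53, Cfap45 and Cfap97d2 had mean levels under 9.07. Tekt1 and Dnali1 had mean levels above 10.08. Background in what follows means the antigenomic median. The GFP- array of odor pool 3 stood apart from the others, at 58.9 on the second principal component, where the other 15 arrays lay at or below 24.6, and the main counts and medians over the 67 genes are given without this pool too.

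In odor pools, motile cilia genes were more often higher than lower in GFP+ cells, by small differences. The difference of GFP+ and GFP- levels within each pool was tested with limma, with Benjamini-Hochberg adjustment across the 19505 genes and a threshold of 0.05. Of the 67 genes, 12 were higher (17.9%, against 7.96% of all genes) and 1 was lower (1.49%, against 10.6% of all genes). Their median difference was 0.31, against 0.11 for all genes, and 59 of the 67 (88.1%) lay above 0, against 64.8% of all genes. At an unadjusted p under 0.05 by limma, in either direction, there were 29 (43.3%), against 31.6% of all genes. Without odor pool 3, 4 of the 67 were higher (5.97%, against 5.6% of all genes) and 1 was lower (1.49%, against 9.73%), so that the share called higher was then close to that of all genes, and the median was 0.27, against 0.11. In vehicle pools 17 were higher (25.4%, against 8.86% of all genes) and 0 were lower, against 10.8% of all genes, with 34 (50.7%, against 31.4% of all genes) at an unadjusted p under 0.05 in either direction by limma and 0 lower also with a trended prior variance. The median difference was again 0.31, against 0.11 for all genes, and 62 (92.5%) lay above 0, against 64.2% of all genes. Both arms share 1 variance per gene, so leaving out odor pool 3 also moved the vehicle calls. Then 22 were higher in vehicle pools (32.8%, against 10.3% of all genes) and 0 lower, against 11.2%. Calls in the same direction in both arms were made for 9 genes, all higher in GFP+ cells (13.4%, against 4.73% of all genes), whereas 9.26% of all genes were called lower in both arms. Without odor pool 3 these were 4 genes (5.97%, against 3.89% of all genes), Ccdc113, Cfap53, Dnah2 and Dnali1, of which 3 were among the 9.

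The differences recurred from pool to pool. The median over the 67 genes was 0.28, 0.26, 0.45 and 0.24 in odor pools 1 to 4, and 0.43, 0.30, 0.27 and 0.35 in vehicle pools 1 to 4. All genes had medians of 0.077 to 0.113 in odor pools and 0.050 to 0.114 in vehicle pools. In the single odor pools 49 to 56 of the 67 lay above 0, against 54.7% to 60.5% of all genes, and in the single vehicle pools 55 to 59, against 54.3% to 60.4% of all genes. A higher GFP+ level was found in 8 of 8 pools for 23 of the genes (34.3%, against 12.5% of all genes), and a lower one in 8 of 8 pools for 0, against 11.3% of all genes. The 8 GFP+ arrays lay above all 8 GFP- arrays for Ccdc113, Tekt1, Tekt4, Rsph14 and Dnaaf5 (7.46% of the 67, against 3.52% of all genes), while 0 of the 67 had all GFP+ arrays below all GFP- arrays, against 7.76% of all genes. These arrays measure bulk RNA, in which fewer cells of a type and less RNA per cell cannot be told apart.

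**Figure D1:**
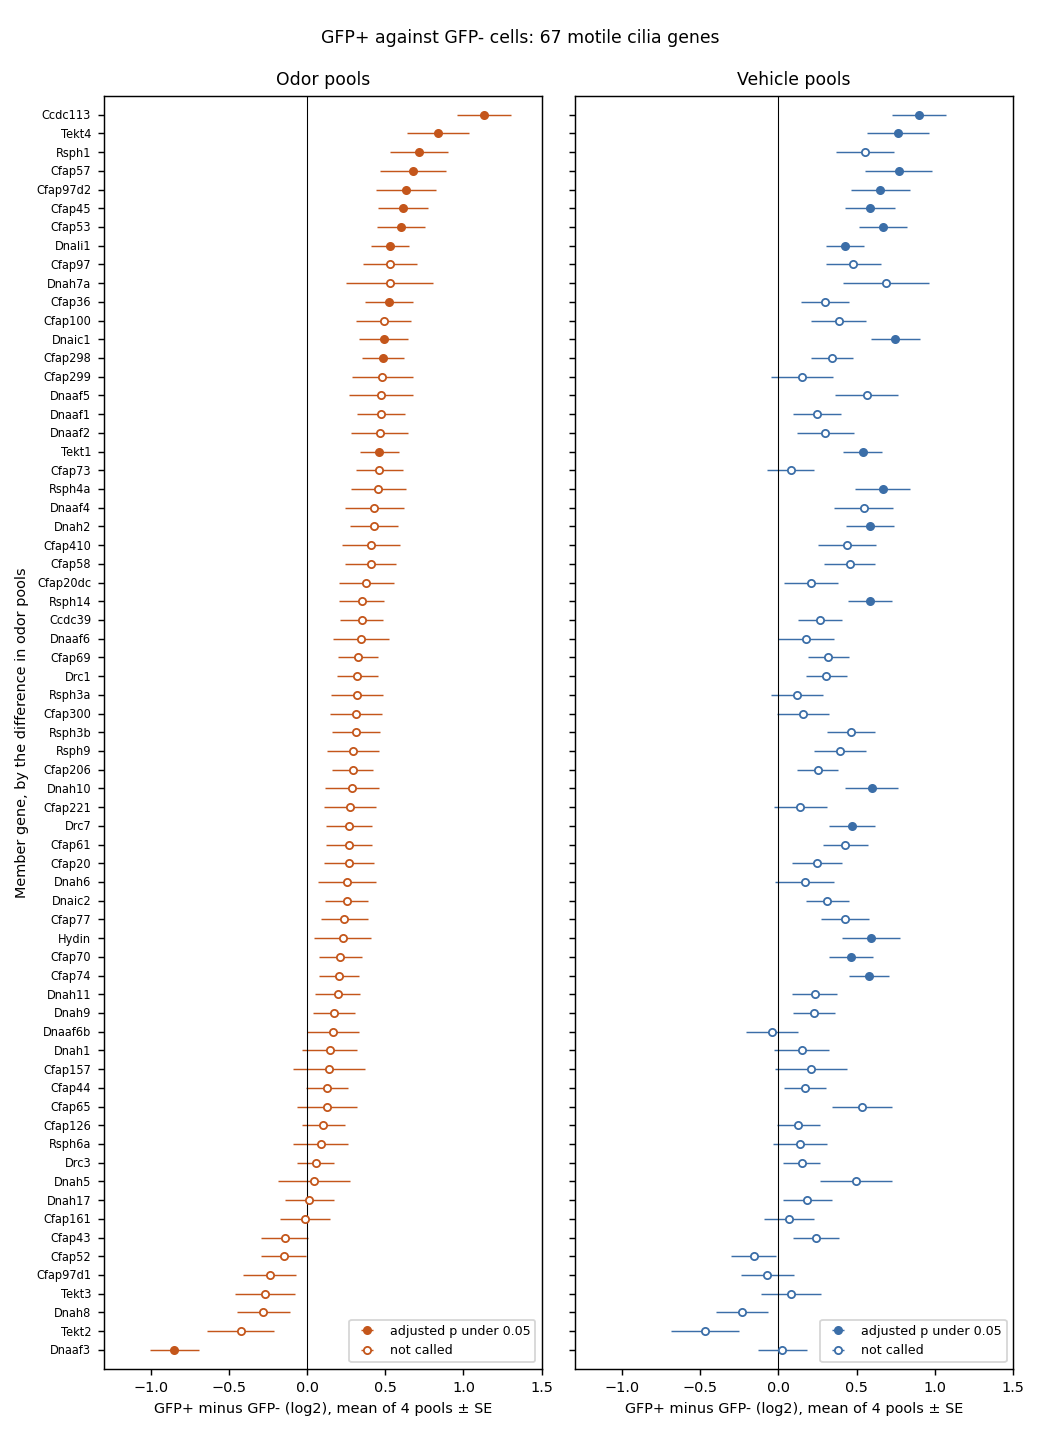
Mean difference of GFP+ and GFP- levels (log2, horizontal axis) in the 4 odor pools (left panel) and the 4 vehicle pools (right panel) for the 67 motile cilia genes, ordered by the odor value, with error bars of 1 SE from the limma fit. Filled points passed the adjusted threshold: 12 higher and 1 lower in odor pools, 17 higher in vehicle pools. Ccdc113 leads both panels, and Dnaaf3 is at the bottom of the odor panel at -0.85 and near 0 in the vehicle panel.

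Counts called higher are given below by role group, where all genes had 7.96% in odor pools and 8.86% in vehicle pools. These groups are small, and their counts were not tested against those shares. Of the 5 genes of the nexin-dynein regulatory complex and the ruler that sets the spacing along the doublets, 1 was higher in odor pools and 2 in vehicle pools, with median differences of 0.32 and 0.31. Ccdc113, which in the ciliate Tetrahymena sits beside this complex, had the smallest adjusted p of the genes called higher in both arms. In odor pools 1 to 4 it lay at 6.71, 7.26, 6.94 and 6.70 in GFP+ cells, against 5.19, 6.23, 5.53 and 6.12 in GFP- cells. In vehicle pools 1 to 4 it lay at 6.96, 6.79, 7.25 and 7.05 in GFP+ cells, against 5.83, 6.20, 6.15 and 6.27 in GFP- cells. All 8 GFP+ arrays lay above all 8 GFP- arrays. All GFP+ arrays and all 4 GFP- arrays of vehicle pools were above the background median, but of the GFP- arrays of odor pools only 2 of 4 were, so the size of the odor difference rests in part on values at background. The difference was 1.13 ± 0.17 in odor pools (SE, n = 4 pools, adjusted p = 5.74e-04) and 0.90 ± 0.17 in vehicle pools (adjusted p = 0.00304). It kept its call in 16 of 16 alternatives in each arm, with differences of 0.94 to 1.36 in odor pools and 0.66 to 1.05 in vehicle pools.

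Drc7, a subunit of the regulatory complex, passed in vehicle pools alone. It lay at 11.29, 11.08, 11.43 and 11.49 in GFP+ cells, against 10.50, 10.72, 11.19 and 11.01 in GFP- cells, with some overlap between the groups but a higher GFP+ level in each pool. The difference was 0.47 ± 0.15 in vehicle pools (adjusted p = 0.046) and 0.27 ± 0.15 in odor pools (adjusted p = 0.237). The call ended without vehicle pool 1 (0.36, adjusted p = 0.19), 2 (0.50, 0.1), 3 (0.54, 0.0513) or 4 (0.46, 0.123) and without odor pool 1 (0.0647), 2 (0.0552) or 4 (0.0628). Ccdc39, part of the ruler, differed by 0.35 ± 0.14 in odor pools and 0.27 ± 0.14 in vehicle pools and did not pass (adjusted p = 0.110 and 0.219). Drc1 (0.32 and 0.31) and Drc3 (0.05 and 0.15), further subunits of the complex, did not pass in odor or vehicle pools either.

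Of the 11 microtubule inner proteins, which line the inside of the doublets, 4 were higher in odor pools and the same 4 in vehicle pools, namely Tekt1, Tekt4, Cfap45 and Cfap53. Their median difference over all 11 was 0.24 in odor pools and 0.25 in vehicle pools. Tekt4, a tektin known from sperm flagella, lay at 7.60, 7.59, 7.49 and 7.63 in GFP+ cells of odor pools, against 6.82, 6.84, 5.97 and 7.35 in GFP- cells. Across vehicle pools its levels were 8.0, 7.53, 7.83 and 8.27 in GFP+ cells, against 7.36, 6.92, 7.29 and 6.98 in GFP- cells. All GFP+ arrays were above all GFP- arrays, and the GFP- level of odor pool 3 was the lowest. The difference was 0.83 ± 0.20 in odor pools (adjusted p = 0.0118) and 0.77 ± 0.20 in vehicle pools (adjusted p = 0.0181). Its odor call ended without odor pool 3 (0.61, adjusted p = 0.0542) and its vehicle call without vehicle pool 4 (0.59, adjusted p = 0.0979).

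Tekt1, another tektin, had narrow groups. It lay at 11.27, 11.11, 11.19 and 11.33 in GFP+ cells of odor pools, against 10.74, 10.88, 10.54 and 10.89 in GFP- cells. Across vehicle pools its levels were 11.57, 11.39, 11.46 and 11.48 in GFP+ cells, against 10.98, 10.81, 10.93 and 11.02 in GFP- cells. GFP+ and GFP- arrays did not overlap in either arm, nor over both. The difference was 0.46 ± 0.12 in odor pools (adjusted p = 0.0231), a call that ended without odor pool 1 (0.0913), 3 (0.0755) or 4 (0.0699), and 0.54 ± 0.12 in vehicle pools (adjusted p = 0.00948), a call that held without each pool. Both calls ended with arrays centred on mature neuron markers (0.222 in odor pools and 0.15 in vehicle pools).

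Cfap53 and Cfap45 lay near the background. Cfap53 had 6.54, 6.75, 6.84 and 6.84 in GFP+ cells of odor pools, against 5.86, 6.34, 6.40 and 5.98 in GFP- cells, and 6.58, 7.33, 7.34 and 6.88 in GFP+ cells of vehicle pools, against 6.11, 6.98, 6.27 and 6.09 in GFP- cells. Its groups overlapped only in vehicle pools, where the GFP- level of pool 2 was high. The difference was 0.60 ± 0.15 in odor pools (adjusted p = 0.0169, but 0.0712 without odor pool 1 and 0.087 without odor pool 4) and 0.67 ± 0.15 in vehicle pools (adjusted p = 0.00876). Cfap45 had 6.65, 6.50, 5.96 and 6.87 in GFP+ cells of odor pools, against 6.18, 6.02, 5.17 and 6.17 in GFP- cells, and 7.10, 6.55, 6.40 and 6.29 in GFP+ cells of vehicle pools, against 6.18, 5.97, 5.57 and 6.27 in GFP- cells. Pool 4 of the vehicle arm contributed almost nothing to its difference (0.03), while the other 7 pools gave 0.47 to 0.91. The difference was 0.61 ± 0.16 in odor pools (adjusted p = 0.0203) and 0.59 ± 0.16 in vehicle pools (adjusted p = 0.0236). Its odor call ended without odor pool 3 (0.0754) or 4 (0.0793), and its vehicle call without vehicle pool 1 (0.113), 2 (0.0774) or 3 (0.0901).

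The other inner proteins did not pass in odor or vehicle pools, and they pointed in different directions. Cfap126 (0.10 in odor pools and 0.13 in vehicle pools), Cfap20 (0.27 and 0.25) and Cfap77 (0.24 and 0.43) lay above 0. Cfap52 (-0.15 and -0.16), which lay above background on all arrays, and Tekt2 (-0.43 and -0.47), which did so on none, lay below 0. Tekt3 differed by -0.27 in odor pools and 0.08 in vehicle pools.

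Of the 6 inner arm dynein genes, 1 was higher in odor pools and 3 in vehicle pools, with median differences of 0.36 and 0.51. Dnali1, a light intermediate chain, passed in both arms. It lay at 11.66, 10.86, 10.55 and 11.54 in GFP+ cells of odor pools, against 11.09, 10.33, 9.92 and 11.15 in GFP- cells, and pools 2 and 3 were low in both fractions. In vehicle pools it lay at 11.09, 11.23, 11.33 and 11.22 in GFP+ cells, against 10.73, 10.67, 10.86 and 10.91 in GFP- cells, with no overlap. The within-pool differences were close to each other, at 0.40 to 0.63 in odor pools and 0.32 to 0.56 in vehicle pools. The mean was 0.53 ± 0.12 in odor pools (adjusted p = 0.00926) and 0.43 ± 0.12 in vehicle pools (adjusted p = 0.0285, and 0.0609 to 0.125 without any 1 of the 4 vehicle pools). With the pool not entered as a block, both calls ended (adjusted p = 0.189 in odor pools and 0.302 in vehicle pools).

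The heavy chain Dnah2 had 7.58, 7.36, 7.29 and 7.65 in GFP+ cells of vehicle pools, against 7.00, 6.71, 6.91 and 6.92 in GFP- cells. These groups did not overlap, and the difference was 0.59 ± 0.15 (adjusted p = 0.0188), against 0.43 ± 0.15 in odor pools (adjusted p = 0.0767). The vehicle call ended without vehicle pool 1 (0.0584), 2 (0.0765) or 4 (0.0813). Dnah10, another inner arm heavy chain, was under background on all arrays and was higher in GFP+ cells of vehicle pools by 0.60 ± 0.17 (adjusted p = 0.0309), a call that ended without vehicle pool 1 (0.0627), 2 (0.116) or 4 (0.156). Dnah7a had larger differences with a larger error, 0.53 ± 0.28 in odor pools and 0.69 ± 0.28 in vehicle pools, and did not pass (adjusted p = 0.220 and 0.112). Pools numbered 3 gave most of them, at 1.71 in the odor arm and 1.49 in the vehicle arm, against 0.02 to 0.55 in the other 6 pools. Without odor pool 3 its odor difference was 0.13 ± 0.22 (adjusted p = 0.744), and the vehicle difference, with a smaller error, passed at 0.69 ± 0.19 (adjusted p = 0.0287). Dnah7a has close relatives in the mouse genome, and signal shared between their probes was not tested.

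Among the 5 genes of the tether and regulators of the inner arms, Cfap57, which in green algae helps hold an inner dynein in place, was higher in both arms. It lay at 8.09, 7.87, 6.90 and 8.09 in GFP+ cells of odor pools, against 7.58, 6.41, 6.57 and 7.68 in GFP- cells. Its levels in vehicle pools were 8.10, 7.85, 7.54 and 8.07 in GFP+ cells, against 6.87, 7.26, 7.31 and 7.05 in GFP- cells. The groups overlapped in odor pools and were apart in vehicle pools. The difference was 0.68 ± 0.21 in odor pools (adjusted p = 0.0475) and 0.77 ± 0.21 in vehicle pools (adjusted p = 0.0257). The odor call ended without odor pool 1 (0.092), 2 (0.42, adjusted p = 0.204), 3 (0.0579) or 4 (0.0746), or without vehicle pool 2 (0.0656) or 4 (0.0626), and the vehicle call without vehicle pool 1 (0.125), 2 (0.06) or 4 (0.105). Cfap100 (0.49 in odor pools and 0.39 in vehicle pools), Cfap44 (0.13 and 0.17) and Cfap43 (-0.14 and 0.24) did not pass.

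Of the 7 outer arm dynein genes, 1 was higher in odor pools and the same 1 in vehicle pools, with median differences of 0.17 and 0.23. This was Dnaic1, an intermediate chain. It lay at 8.37, 7.84, 7.12 and 7.94 in GFP+ cells of odor pools, against 7.54, 7.62, 6.52 and 7.64 in GFP- cells. Across vehicle pools its levels were 7.79, 7.96, 7.57 and 8.34 in GFP+ cells, against 6.73, 7.37, 7.14 and 7.44 in GFP- cells. Only the vehicle groups were free of overlap. The difference was 0.49 ± 0.16 in odor pools (adjusted p = 0.0496) and 0.75 ± 0.16 in vehicle pools (adjusted p = 0.00511). The odor call ended without odor pool 1 (0.211), 2 (0.0586), 3 (0.13) or 4 (0.0801), or without vehicle pool 2 (0.0686) or 4 (0.067).

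The outer arm heavy chains did not pass. Dnah11 lay at 12.90, 12.89, 12.28 and 12.64 in GFP+ cells of odor pools, against 12.68, 12.43, 12.41 and 12.41 in GFP- cells, and at 13.17, 12.95, 12.87 and 13.13 in GFP+ cells of vehicle pools, against 12.84, 12.77, 12.94 and 12.64 in GFP- cells. The pools numbered 3 of both arms ran against the others, and the differences were 0.20 ± 0.14 and 0.23 ± 0.14 (adjusted p = 0.386 and 0.302). Dnah5, which human respiratory cilia need for their outer arms, was under background on all arrays. Its difference was 0.05 ± 0.23 in odor pools, where pools 1 and 2 gave 0.53 and 0.72 and pools 3 and 4 gave -0.63 and -0.43, and 0.50 ± 0.23 in vehicle pools (adjusted p = 0.915 and 0.163). Dnah9 differed by 0.17 and 0.23, the intermediate chain Dnaic2 by 0.25 and 0.31, and Dnah8 and Dnah17, known from sperm flagella and under background here, by -0.28 and -0.23 and by 0.01 and 0.19.

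Of the 8 genes for assembly of the dynein arms in the cytoplasm, 1 was higher and 1 lower in odor pools, and 0 were called in vehicle pools, where 3 had an unadjusted p under 0.05. The median differences were 0.45 and 0.27. Cfap298 lay at 12.82, 12.96, 12.69 and 12.77 in GFP+ cells of odor pools, against 12.37, 12.46, 12.03 and 12.44 in GFP- cells, without overlap. The difference was 0.49 ± 0.14 in odor pools (adjusted p = 0.0288) and 0.34 ± 0.14 in vehicle pools (adjusted p = 0.108). Its odor call ended without odor pool 1 (0.084), 2 (0.0866), 3 (0.0931) or 4 (0.0549). Dnaaf1 (0.47 in odor pools and 0.25 in vehicle pools), Dnaaf2 (0.46 and 0.30), Dnaaf4 (0.43 and 0.55), Dnaaf5 (0.47 and 0.57) and Cfap300 (0.31 and 0.16) did not pass.

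Dnaaf3 was the member called lower. In odor pools it lay at 4.52, 4.69, 4.42 and 4.87 in GFP+ cells, against 5.69, 5.68, 4.92 and 5.61 in GFP- cells. In vehicle pools it lay at 4.98, 4.94, 4.84 and 5.15 in GFP+ cells, against 4.66, 5.28, 4.82 and 5.05 in GFP- cells. The odor groups did not overlap and the vehicle groups did, and 15 of the 16 values lay under the background median of their array. The difference was -0.85 ± 0.16 in odor pools (adjusted p = 0.00216) and 0.03 ± 0.16 in vehicle pools (adjusted p = 0.932). The gap between the arms, -0.88 ± 0.22, had an unadjusted p of 0.0021 by limma and an adjusted p of 1.00.

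Of the 9 radial spoke genes, 1 was higher in odor pools and 2 others in vehicle pools, with median differences of 0.31 and 0.43. Rsph1, a spoke head protein, lay at 9.65, 8.94, 8.95 and 9.38 in GFP+ cells of odor pools, against 8.91, 8.27, 7.69 and 9.17 in GFP- cells. The groups overlapped, with the GFP- level of pool 3 the lowest, and the difference was 0.72 ± 0.19 (adjusted p = 0.0189), against 0.55 ± 0.19 in vehicle pools (adjusted p = 0.0588). The call ended without odor pool 1 (0.0652), 2 (0.0545) or 3 (0.54, adjusted p = 0.0891). Rsph4a, also of the spoke head, lay at 14.61, 14.13, 13.50 and 14.22 in GFP+ cells of vehicle pools, against 13.23, 13.57, 13.24 and 13.75 in GFP- cells. Vehicle pool 1 gave the widest gap, 1.38, against 0.26 to 0.56 in the other 3. The difference was 0.67 ± 0.18 (adjusted p = 0.0204, but 0.43 and 0.0885 without vehicle pool 1, and 0.0551 without vehicle pool 2), and 0.46 ± 0.18 in odor pools (adjusted p = 0.0993).

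Rsph14 lay at 13.09, 13.33, 13.36 and 13.28 in GFP+ cells of vehicle pools, against 12.57, 12.57, 12.75 and 12.82 in GFP- cells. The groups were apart, with a difference of 0.59 ± 0.14 (adjusted p = 0.0132, and 0.0723 without vehicle pool 2), and of 0.35 ± 0.14 in odor pools (adjusted p = 0.118). In odor pools its GFP+ levels were 12.98, 12.98, 13.04 and 13.03, against 12.64, 12.97, 12.29 and 12.72 in GFP- cells. Rsph9 (0.30 in odor pools and 0.39 in vehicle pools), Cfap61 (0.27 and 0.43), Cfap206 (0.29 and 0.25), Rsph3a (0.32 and 0.12) and Rsph3b (0.31 and 0.46) did not pass. Rsph3a and Rsph3b are near-identical copies, and signal shared between their probes was not tested.

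Of the 6 central pair genes, 0 were called in odor pools, where limma gave 1 at an unadjusted p under 0.05, and 3 were higher in vehicle pools. Their median differences were 0.22 and 0.50. Hydin, whose protein forms a projection of the central pair, lay at 9.52, 9.60, 9.41 and 9.76 in GFP+ cells of vehicle pools, against 8.94, 8.99, 9.01 and 8.98 in GFP- cells. In odor pools it lay at 9.38, 9.68, 9.40 and 9.58 in GFP+ cells, against 9.43, 8.88, 9.76 and 9.05 in GFP- cells. The vehicle groups were apart, whereas odor pools 1 and 3 had the higher level in GFP- cells. The difference was 0.59 ± 0.18 in vehicle pools (adjusted p = 0.0433) and 0.23 ± 0.18 in odor pools (adjusted p = 0.430). The vehicle call ended without vehicle pool 1 (0.111), 2 (0.123), 3 (0.0656) or 4 (0.151), or without odor pool 1 (0.0518) or 4 (0.052).

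Cfap74 lay at 10.23, 9.93, 10.15 and 10.52 in GFP+ cells of vehicle pools, against 9.47, 9.53, 9.61 and 9.92 in GFP- cells, and the groups only just missed overlapping. The difference was 0.58 ± 0.13 in vehicle pools (adjusted p = 0.00742), a call that held without each pool, and 0.20 ± 0.13 in odor pools (adjusted p = 0.30). The vehicle call ended with the pool not entered as a block (0.145) or with arrays centred on mature neuron markers (0.149). Cfap70 was higher by 0.46 ± 0.14 in vehicle pools (adjusted p = 0.0384) and differed by 0.21 ± 0.14 in odor pools (adjusted p = 0.324). Its vehicle call ended without vehicle pool 1 (0.154), 2 (0.129), 3 (0.0506) or 4 (0.077), or without odor pool 1 (0.0555) or 4 (0.0547). These gaps between the arms were tested, and none of the 3 passed (adjusted p of the arm difference 1.00 each).

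Cfap69, which sperm flagella need and which in mouse olfactory sensory neurons shapes the kinetics of the odor response, lay at 16.24, 16.20, 16 and 16.23 in GFP+ cells of odor pools, against 15.94, 15.81, 15.53 and 16.09 in GFP- cells. In vehicle pools it lay at 15.94, 16.33, 16.09 and 16.38 in GFP+ cells, against 15.84, 15.78, 15.83 and 16.02 in GFP- cells. The GFP+ level was higher in 8 of 8 pools, by 0.10 to 0.55, although the groups overlapped in each arm. The mean difference of 0.33 ± 0.13 in odor pools and 0.32 ± 0.13 in vehicle pools did not pass (adjusted p = 0.109 and 0.115). Cfap65 differed by 0.12 in odor pools and 0.53 in vehicle pools, and did not pass.

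The 10 genes outside these groups included 2 that were higher in odor pools and 1 in vehicle pools. Dnaaf6b was counted here and not with the assembly genes. Cfap97d2 was under background on all arrays, at 5.22, 5.46, 4.63 and 5.51 in GFP+ cells of odor pools, against 4.99, 4.35, 4.13 and 4.82 in GFP- cells. Its levels in vehicle pools were 5.65, 4.56, 5.74 and 5.26 in GFP+ cells, against 4.46, 4.35, 4.89 and 4.90 in GFP- cells. The groups overlapped in both arms and each pool had the higher level in GFP+ cells. The difference was 0.63 ± 0.19 in odor pools (adjusted p = 0.0399) and 0.65 ± 0.19 in vehicle pools (adjusted p = 0.0328). The odor call ended without odor pool 2 (0.169), 3 (0.0769) or 4 (0.115) or vehicle pool 4 (0.0506), and the vehicle call without vehicle pool 1 (0.158) or 3 (0.107). Cfap36 was higher in odor pools, at 13.13, 12.92, 13.00 and 13.05 in GFP+ cells, against 12.29, 12.65, 12.22 and 12.85 in GFP- cells, with a difference of 0.52 ± 0.15 (adjusted p = 0.0327), against 0.30 ± 0.15 in vehicle pools (adjusted p = 0.205). That call ended without odor pool 1 (0.42, adjusted p = 0.153) or 3 (0.44, 0.116) or vehicle pool 2 (0.0503).

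**Figure D2:**
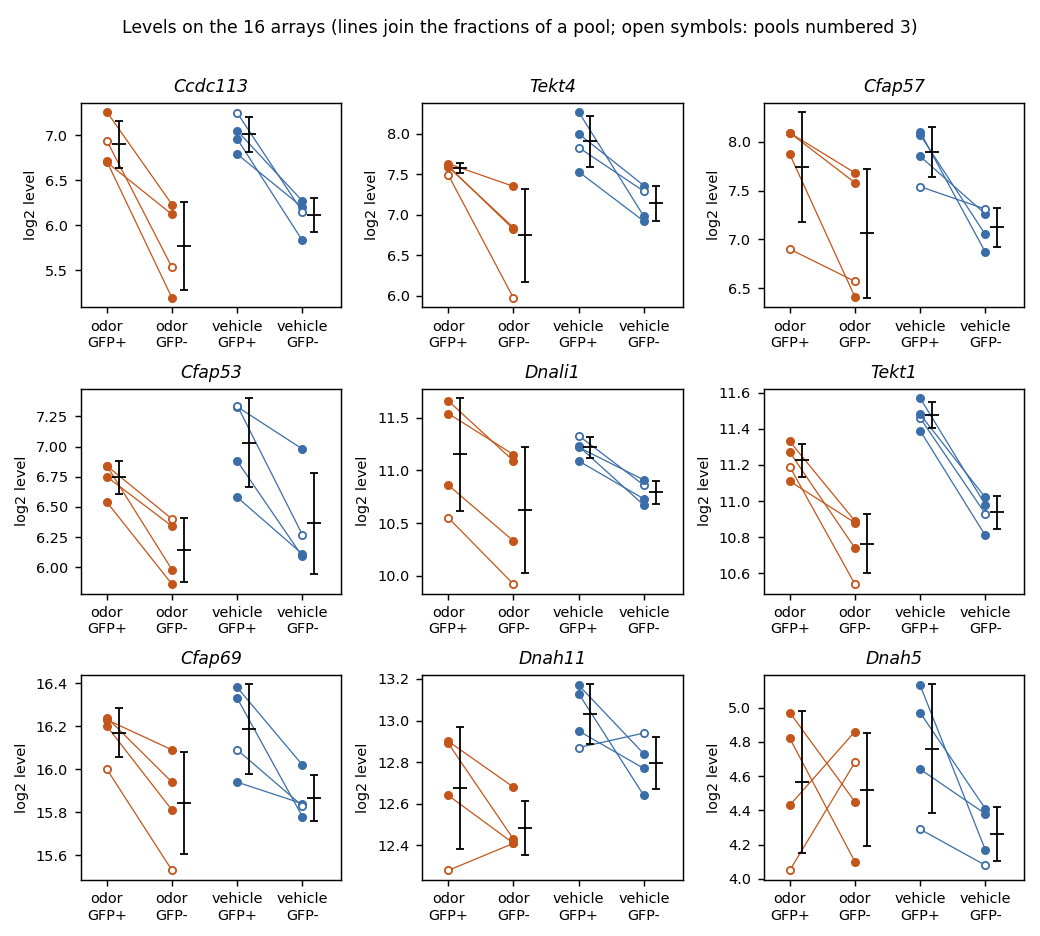
Log2 level (vertical axis, a scale of its own in each panel) of 9 motile cilia genes on the 16 arrays, by group, with odor pools in orange and vehicle pools in blue. Lines join the 2 fractions of a pool, open symbols are pools numbered 3, and black marks are the mean ± SD of 4 arrays. Ccdc113, Tekt4 and Tekt1 keep the GFP+ arrays above the GFP- arrays, Cfap69 is higher in GFP+ cells of each pool with overlapping groups, and the lines of Dnah5 cross in odor pools.

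The promoters of these genes were searched for motifs known from ciliary genes. Transcription factors of the RFX family bind the X-box of such promoters, and FOXJ1, a forkhead factor, is the regulator of motile cilia. RefSeq promoters of GRCm38.p6, with 250 bases before and 50 after the start, were at hand for 58 of the 67 genes. Both strands were read. The full X-box, GTTNCC and GGNAAC with 2 bases of any kind between them, was found for 4 of the 58 (6.90%), against 87 (0.5545%) of 15691 genes of the array. These were Cfap20dc, Cfap298, Dnaaf6 and Dnaaf6b. The matches of Dnaaf6 and Dnaaf6b lie in stretches of nearly the same sequence, so they may not be separate finds. A shorter form, GTTGCC and GG with 2 bases of any kind between them, overlaps it and was found for 10 (17.2%), against 2.83%. The hexamer GTTGCC, contained in that form, was found for 25 (43.1%), against 13.9%. The forkhead core TGTTTAC was found for 4 (6.90%), against 3.47%. Over all 32851 promoters the shares were 0.4505%, 2.25%, 12.5% and 3.65% in the same order of motifs. Of the genes called in both arms 8 had a promoter, and 4 of these held the hexamer (Ccdc113, Tekt4, Tekt1 and Cfap97d2), 1 of them (Cfap97d2) the shorter form, and 0 the full X-box or the forkhead core. A match describes the letters only.

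Below are the promoters of 3 genes called in both arms that hold the hexamer, and that of Cfap298, called in odor pools, with a full X-box, each 5′ to 3′ along the gene. Capitals mark the longest match, as read on the strand of the gene, where GGCAAC is the hexamer's reverse complement. The region of Ccdc113 is chr8:95533850-95534149 on the plus strand, with the match ending at the base before the start. The region of Tekt4 is chr17:25471340-25471639 on the plus strand, with the match after the start. The region of Cfap97d2 is chr8:13705639-13705938 on the plus strand, with the reverse complement of the shorter form at positions -23 to -14 relative to the start. The region of Cfap298 is chr16:90934800-90935099 on the minus strand, with the X-box at positions -188 to -175 relative to the start.
Ccdc113: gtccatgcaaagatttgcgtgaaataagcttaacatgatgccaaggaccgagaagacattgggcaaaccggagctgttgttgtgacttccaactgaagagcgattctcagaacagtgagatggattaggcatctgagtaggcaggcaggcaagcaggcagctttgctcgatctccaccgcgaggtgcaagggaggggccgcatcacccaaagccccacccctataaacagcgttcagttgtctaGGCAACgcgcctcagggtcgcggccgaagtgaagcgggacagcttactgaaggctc
Tekt4: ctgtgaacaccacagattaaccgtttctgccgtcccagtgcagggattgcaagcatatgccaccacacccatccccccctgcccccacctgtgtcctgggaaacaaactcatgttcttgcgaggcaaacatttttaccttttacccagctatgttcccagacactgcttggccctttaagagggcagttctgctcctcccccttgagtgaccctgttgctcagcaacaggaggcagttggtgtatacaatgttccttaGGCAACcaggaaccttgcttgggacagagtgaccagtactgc
Cfap97d2: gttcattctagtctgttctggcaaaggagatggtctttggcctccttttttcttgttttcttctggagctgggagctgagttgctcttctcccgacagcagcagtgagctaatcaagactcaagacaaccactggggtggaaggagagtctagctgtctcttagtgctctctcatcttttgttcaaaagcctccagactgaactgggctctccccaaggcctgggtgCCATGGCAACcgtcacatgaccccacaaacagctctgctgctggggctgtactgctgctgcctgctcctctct
Cfap298: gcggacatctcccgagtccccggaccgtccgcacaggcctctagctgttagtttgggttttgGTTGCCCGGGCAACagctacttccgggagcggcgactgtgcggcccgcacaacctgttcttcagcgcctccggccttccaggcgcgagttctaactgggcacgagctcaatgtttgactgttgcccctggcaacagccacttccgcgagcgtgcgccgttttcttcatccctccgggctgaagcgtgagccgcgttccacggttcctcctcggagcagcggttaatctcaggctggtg

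A list of 54 other measured genes, which the naming rule does not take, was made mainly of axonemal genes. It also held transcription factors of the RFX family, Wdr34 and Klhl6. Of the 54 genes, 44 lay above background on all arrays. In odor pools 13 were higher (24.1%, against 7.96% of all genes) and 1 lower (1.85%, against 10.6%), with a median of 0.32. In vehicle pools 17 were higher (31.5%, against 8.86% of all genes) and 1 lower (1.85%, against 10.8%), with a median of 0.37. Their counts were not tested against those of the 67 genes. The gene lower in both arms was Klhl6, by -3.93 in odor pools and -4.47 in vehicle pools, which is better known from lymphocytes. Rfx4, of the RFX family, was higher by 1.36 ± 0.17 in odor pools (adjusted p = 1.05e-04) and 1.76 ± 0.17 in vehicle pools (adjusted p = 1.26e-05), while Rfx3, a regulator of ciliary genes, differed by 0.10 and 0.02 and did not pass. Mdh1b (0.62 and 0.59) and Wdr34 (0.65 and 0.47), the second of which belongs to the dynein that moves cargo within cilia, were higher in both arms.

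Markers of several cell types moved with the sort. Multiciliated cell markers outside the 67 genes numbered 16, of which 6 lay above background on all arrays and 6 on none, the second of these including Mcidas and Gmnc, which set the multiciliated fate, and Trp73. In odor pools 1 was higher (Deup1, 1.21 ± 0.18) and 1 lower (Myb, -5.09 ± 0.18), and in vehicle pools 2 were higher (Deup1, 1.41 ± 0.18, and Fam183b, 0.68 ± 0.19) and 1 lower (Myb, -4.77 ± 0.18). Of all genes, 7.96% were higher and 10.6% lower in odor pools, and 8.86% higher and 10.8% lower in vehicle pools. Myb is also known from dividing progenitors, and the differences of Deup1 rest in part on GFP- levels under background. Over the 16 multiciliated markers the median difference was 0.09 in odor pools and 0.29 in vehicle pools, against 0.11 for all genes in each. In each arm 12 of the 16 lay above 0, against 64.8% of all genes in odor pools and 64.2% in vehicle pools. At an unadjusted p under 0.05 by limma, in either direction, there were 7 and 8, against 31.6% and 31.4% of all genes. The array median of the 16 lay at 5.61 to 6.69 in GFP+ cells and 5.98 to 6.98 in GFP- cells of odor pools. In vehicle pools it lay at 6.20 to 6.66 in GFP+ cells and 6.43 to 6.61 in GFP- cells. Mature sensory neuron markers had median differences of 0.19 in odor pools and 0.25 in vehicle pools, with 11 and 12 of 12 above 0, and 1 of 12 was called, Ano2, a chloride channel of transduction, at 0.44 in odor pools and 0.38 in vehicle pools. Neutrophil markers were lower in 5 of 5, with medians of -10.02 and -9.81, immature sensory neuron markers in 7 of 7 (-2.71 and -2.77), and sustentacular cell markers in 5 of 6 (-1.89 and -2.11). Of 6 markers of basal and dividing cells 3 were lower, and Krt5, Krt14 and Trp63 were under background on all arrays.

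With each array centred on the mean of the 11 mature neuron markers above background, an alternative added after the data were seen, the median of the 67 genes was 0.12 in odor pools and 0.08 in vehicle pools, against -0.07 and -0.13 for all genes. In odor pools 48 of the 67 (71.6%) lay above 0, against 40.2% of all genes. There 2 were called higher (2.99%, against 3.53% of all genes), Ccdc113 at 0.94 and Tekt4 at 0.65, and 1 lower (1.49%, against 13.4%), Dnaaf3 at -1.04. In vehicle pools 42 (62.7%) lay above 0, against 32.8% of all genes. There 2 were called higher (2.99%, against 3.47% of all genes), Ccdc113 at 0.66 and Dnaic1 at 0.51, and 1 lower (1.49%, against 15.3%), Tekt2 at -0.70. The share called higher was thus no larger than that of all genes in either arm. The share of the neuronal, neutrophil and other cells in the differences of the motile cilia genes was not tested otherwise.

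**Figure D3:**
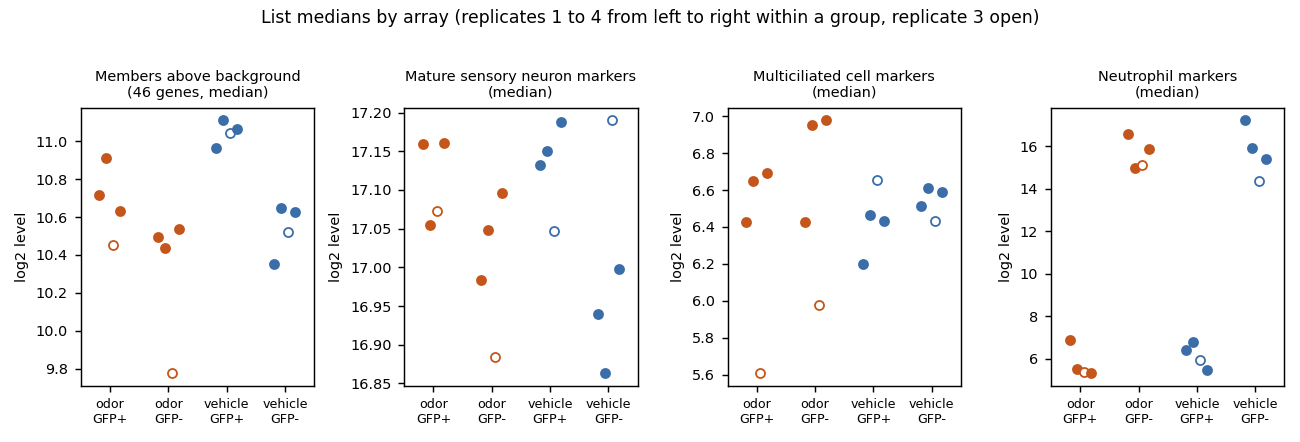
Median log2 level (vertical axis, a scale of its own in each panel) on each array of the 46 motile cilia genes above background, of mature sensory neuron markers, of multiciliated cell markers and of neutrophil markers, by group, with replicates 1 to 4 from left to right and replicate 3 open. The motile cilia median is 10.45 to 10.91 in GFP+ and 9.78 to 10.54 in GFP- cells of odor pools, and 10.97 to 11.11 in GFP+ and 10.35 to 10.65 in GFP- cells of vehicle pools. The lowest point, 9.78, is the GFP- array of odor pool 3.

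The pools differed in the level of the whole group. Among the 46 genes above background on all arrays, odor pool 3 was the lowest of the 4 odor pools for 31 (67.4%) in GFP+ cells, against 24.8% of all genes, and for 34 (73.9%) in GFP- cells, against 34.5% of all genes. Its median deviation from the group median over these genes was -0.21 in GFP+ cells and -0.48 in GFP- cells, whereas mature neuron markers deviated by 0.00 and -0.06. Fam183b, a multiciliated cell marker, lay at 5.47 in GFP+ cells and 4.99 in GFP- cells of this pool, against 7.2 to 9.94 on the other 14 arrays.

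The odorant itself was compared with filtered air in 3 ways, and no motile cilia gene passed in any of them. In the enrichment difference, odor minus vehicle, limma called 0 of the 67 (0% of all genes). At an unadjusted p under 0.05 by limma there was 1 (1.49%), Dnaaf3, where all genes had 654 (3.35%). The median over the 67 was -0.05, and 27 (40.3%) lay above 0, against 51.1% of all genes. Without odor pool 3 the median was -0.065 and 22 (32.8%) lay above 0, against 49.4% of all genes, with 0 called. An alternative fit without the pool as a block also called 0. The smallest p after Dnaaf3 were those of Cfap74 (-0.37 ± 0.18, unadjusted p = 0.0623) and Cfap43 (-0.38 ± 0.21, unadjusted p = 0.0955). The SE of these differences was 0.17 to 0.39 over the 67 genes.

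In GFP+ cells limma called 0 of the 67 (0% of all genes), and 0 with the replicate number as a block. At an unadjusted p under 0.05 by limma there were 4 (5.97%), where all genes had 1070 (5.49%), a share close to that of the 67. The median difference, odor minus vehicle, was -0.10, and 19 of the 67 (28.4%) lay above 0, against 50.7% of all genes. Without odor pool 3 the median was -0.01 and 30 (44.8%) lay above 0, against 50.5% of all genes. Drc7 lay at 10.89, 10.96, 10.69 and 11.06 in GFP+ cells of odor pools, against 11.29, 11.08, 11.43 and 11.49 in GFP+ cells of vehicle pools. These groups did not overlap, and the difference was -0.42 ± 0.14 (unadjusted p = 0.013, adjusted p = 0.891 by limma). The other 3 were Dnaaf3 (-0.35), Cfap43 (-0.43 ± 0.18) and Cfap97 (0.33 ± 0.14). Groups without overlap, with all odor arrays below all vehicle arrays, were found for 4 of the 67, Drc3, Drc7, Rsph14 and Tekt1 (5.97%, against 1.47% of all genes), and the opposite for 0, against 1.74% of all genes. Tekt1 lay at 11.11 to 11.33 in GFP+ cells of odor pools, against 11.39 to 11.57 in GFP+ cells of vehicle pools, a difference of -0.25 ± 0.12 (unadjusted p = 0.0556). Rsph14 differed by -0.26 ± 0.12 and Drc3 by -0.24 ± 0.12 (unadjusted p = 0.0511 and 0.0692). Without odor pool 1 the median over the 67 was -0.13, and without both pools numbered 3 it was -0.06.

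In GFP- cells limma called 0 of the 67, against 0.00513% of all genes called lower and 0% higher, and 0 with the replicate number as a block. At an unadjusted p under 0.05 by limma there was 1 (1.49%), where all genes had 697 (3.57%). This was Dnaaf3, at 0.52 ± 0.22 (unadjusted p = 0.0348, adjusted p = 1.00 by limma). Dnah11 differed by -0.32 ± 0.15 in GFP- cells and by -0.35 ± 0.16 in GFP+ cells (unadjusted p = 0.0553 and 0.0531). Hydin differed by 0.30 ± 0.20 and Cfap97d1, under background, by 0.36 ± 0.19. The median over the 67 was -0.05 and 20 (29.9%) lay above 0, against 48.8% of all genes. Without odor pool 3 the median was 0.05 and 39 (58.2%) lay above 0, against 50.1% of all genes, and without both pools numbered 3 the median was 0.06. The number of genes of the 67 with groups that did not overlap was 0 in each direction, against 1.37% of all genes higher and 1.11% lower.

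**Figure D4:**
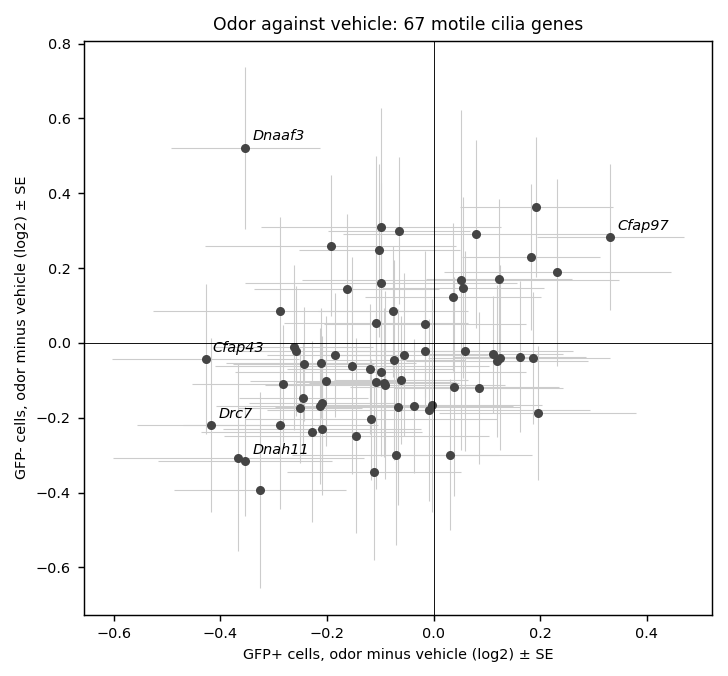
Difference of odor and vehicle pools (log2, odor minus vehicle) in GFP+ cells (horizontal axis) and GFP- cells (vertical axis) for the 67 motile cilia genes, with error bars of 1 SE from 4 pools against 4. The points reach from -0.43 to 0.33 in GFP+ cells and from -0.39 to 0.52 in GFP- cells. The median SE is 0.16 in GFP+ cells and 0.20 in GFP- cells. Above 0 lie 28.4% of the 67 genes in GFP+ cells and 29.9% in GFP- cells, against 50.7% and 48.8% of all genes. The labelled genes are Dnaaf3 at -0.35 and 0.52, Drc7, Cfap43, Cfap97 and Dnah11, and 0 of the 67 passed the adjusted threshold.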

How the data were processed

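Affymetrix Clariom S arrays measured 16 samples, the GFP+ and GFP- cells of 8 pools of 3 mice. The authors deposited processed values made with Affymetrix Expression Console, per the submitters' processing notes. The sources used here give neither its version nor how background was corrected, arrays normalized or probes summarized. The deposited values were taken as log2, a scale inferred from their range. Each array held 28846 probes, of which 19572 had 1 gene symbol in the platform annotation. Where a gene had more than 1 probe (55 genes), the one of highest mean was kept, leaving 19505 genes. The number of arrays limits the precision, and p-values reflect how much pools of 3 mice vary. Replicate number 3 occurs for both of the last vehicle pools in the titles, and the later is called 4 here.

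Tests used limma 3.58.1 in R 4.3.3, two-sided, on within-pool differences (enrichment in each arm and its difference between arms) and on odor against vehicle levels in each fraction. SEs share 1 moderated variance per gene between the arms. The pool pairs the fractions, whose deviations correlated at 0.109 to 0.249. Same-numbered odor and vehicle pools correlated at 0.114 to 0.242 in GFP+ cells, so they may be paired. In GFP- cells the range was 0.066 to 0.332, and for within-pool differences it was 0.097 to 0.305, also above 0 throughout. The odor comparisons reported were fitted without this pairing, which was entered only in the alternative with a replicate block. Their printed SEs and p-values thus do not take it into account. Alternatives were median centring, quantile normalization, a filter on dim genes, the mean of a gene's probes, a trended prior variance, no pool block, a replicate block and each pool left out. After the data were seen, both pools numbered 3 were also left out together and arrays were centred on neuronal markers, which was done for counts and called genes. The genes, roles and marker lists were chosen with earlier results of these data known.

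Genes named with values are the symbols in the rule, the 2 with the highest mean per role, the 10 with the largest difference in each direction called in both arms, the 5 with the highest and 3 with the lowest mean level, the 3 with the smallest p in each odor comparison, Cfap69, Dnah5 and Dnah11, and every gene called in 1 arm. Of the 3 with the lowest mean level, Dnaaf6 is named without values, Dnah6 with the levels around an outlying array, and Cfap161 with differences from alternatives alone. Further members are given as differences alone. Likeness to Foxj1 was planned and not computed.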

Additional observations from a re-analysis of the deposited data

Results flagged for a closer look

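Among 164 groups of 4 arrays, covering 40 named motile cilia genes and the median of those above background, 9 held an array far from the other 3. Chance gives such an array in about 5 of 100 groups. In GFP- cells of odor pools, pool 3 was low for Ccdc39 (12.01, against 12.88 to 12.95 in the other pools), Cfap126 (14.98, against 15.85 to 15.94), Dnah7a (9.43, against 11.24 to 11.61) and Cfap45 (5.17, against 6.02 to 6.18). It was also low for Dnaic1 (6.52, against 7.54 to 7.64), Dnaaf3 (4.92, against 5.61 to 5.69) and the median of the 46 genes above background (9.78, against 10.44 to 10.54). In the same group pool 1 was high for Dnah11 (12.68, against 12.41 to 12.43). In GFP- cells of vehicle pools, pool 2 was low for Dnah6 (2.59, against 2.89 to 2.92), which lay under background on all arrays.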

How the results depend on the processing

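The number of genes higher in GFP+ cells of odor pools, 12 as reported, with 7.96% of all genes, was 46 with median centring (33.1% of all genes, whose median was then 0.34) and 20 with quantile normalization (10.1%). It was 6 with the pool not entered as a block (6.79% of all genes), 5 without both pools numbered 3 (5.85%), 2 with arrays centred on neuronal markers (3.53%) and 4 to 14 without 1 pool (4.98% to 8.47%). In vehicle pools the 17, with 8.86% of all genes, became 34 with median centring (19.6% of all genes, median 0.26), 11 without the pool block (7.40%), 2 with neuronal centring (3.47%) and 7 to 22 without 1 pool (5.18% to 10.3%). The count lower became 0 in odor pools with the filter on dim genes, which dropped Dnaaf3 from the test, and 1 in vehicle pools with neuronal centring. Of 30 called differences, 3 held in every alternative run, those of Ccdc113 in both arms and of Dnaaf3 in odor pools, and 27 were lost in at least 1. The losses given above for single genes are mainly those from leaving out a pool. With quantile normalization the vehicle calls of Cfap70 (adjusted p = 0.0596), Dnali1 (0.0506), Drc7 (0.0638) and Hydin (0.0708) also ended. Of 50 differences that were not called, 24 passed in at least 1 alternative. Signs turned for 9 uncalled differences. In odor pools these were Cfap126 without odor pool 3 (-0.0082, range without 1 pool -0.0082 to 0.18), Cfap161 with median centring (0.21) and without odor pool 3 (0.058) or 4 (0.074, range -0.17 to 0.074), Cfap43 with median centring (0.080) and quantile normalization (0.021), Cfap65 without odor pool 3 (-0.049, range -0.049 to 0.24), Dnah5 without odor pool 1 (-0.12) or 2 (-0.18, range -0.18 to 0.27), and Drc3 with quantile normalization (-0.0046). In vehicle pools these were Cfap161 with quantile normalization (-0.0098) and without vehicle pool 2 (-0.042, range -0.042 to 0.18), Cfap97d1 with median centring (0.081) and without vehicle pool 1 (0.046) or 2 (0.018, range -0.21 to 0.046), and Dnaaf3 without vehicle pool 1 (-0.075, range -0.075 to 0.15). The cause of these moves was not tested. With the replicate number as a block, pairing odor and vehicle pools, 0 of the 67 genes were called in each of the 3 odor comparisons, as without it, so it changed no call. Signal near or under background limits, among others, Ccdc113, Cfap45, Cfap53, Dnaaf3, Dnaaf4, Dnah5, Dnah10 and Cfap97d2.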

Other observations

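For Rfx4, all 8 GFP+ arrays lay above all 8 GFP- arrays. It lay at 9.67, 9.79, 9.65 and 10.16 in GFP+ cells of odor pools, against 8.15, 8.56, 8.57 and 8.56 in GFP- cells, and at 10.15, 10.17, 10.51 and 10.35 in GFP+ cells of vehicle pools, against 7.83, 8.41, 9.09 and 8.80 in GFP- cells. Rfx2, of the same family, was higher in vehicle pools by 0.66 ± 0.14 (adjusted p = 0.00558) and differed by 0.14 ± 0.14 in odor pools (adjusted p = 0.527), and a difference between the arms was not called. Deup1, which acts in the amplification of centrioles, lay at 6.73, 7.09, 6.55 and 7.50 in GFP+ cells of odor pools, against 5.46, 6.02, 5.16 and 6.41 in GFP- cells, and at 6.34, 7.02, 7.37 and 7.26 in GFP+ cells of vehicle pools, against 5.66, 5.43, 5.62 and 5.66 in GFP- cells. Its GFP+ level was higher in 8 of 8 pools. The GFP- levels of all vehicle pools and of odor pools 1 and 3 were under the background median of their arrays. The size of its differences thus rests in part on values at background.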
